A study of Mus musculus with 2 samples.

Results

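The 4 Id genes (Id1, Id2, Id3 and Id4) and the genes of both inhibitory Smads (Smad6 and Smad7) were followed across the cell types of mouse muscle. They were taken by gene symbol, 6 of the 32285 genes in the count tables, and all 6 were detected in both libraries. Single-cell RNA-seq (10x Genomics droplets) was performed on live mononuclear cells sorted from hindlimb muscle of aging mice that received the drug Maraviroc (MVC) or the vehicle DMSO. The C57BL/6 mice of both groups were 18 months old at the start and were injected intraperitoneally every 2 days for 3 months, with MVC at 10 mg/kg in the MVC group. No genetic modification was named for either group. Each group held 1 library, and the number of mice behind a library was not given in the sources used here. No difference between the libraries could therefore be set against the spread between mice, no test was run, and each ratio below describes these 2 libraries only.

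Id proteins are small helix-loop-helix proteins without a DNA-binding region. They bind E proteins and so keep tissue-specific bHLH factors, such as the myogenic factors of muscle stem cells, from forming DNA-binding pairs. The Id genes are classical immediate targets of bone morphogenetic protein (BMP) signalling, in which a ligand and its receptors phosphorylate Smad1 and Smad5, which enter the nucleus with Smad4. In the vessel wall this arm is known for its role in endothelial quiescence and identity. Smad6 and Smad7 are induced by the same signalling and act back on it, Smad6 mainly on the BMP arm and Smad7 on both the BMP and the TGF-beta arm.

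After cells with fewer than 500 genes or more than 10% mitochondrial UMIs (unique molecular identifiers, 1 per captured transcript) were removed, 5437 DMSO cells with a median of 5802 UMIs and 5454 MVC cells with a median of 5195 UMIs were kept. Of 28 clusters, drawn without the 6 genes, 26 were named from marker genes into 15 cell types, of which 11 had at least 50 cells in each library. Endothelial cells (EC-like) and fibro-adipogenic progenitors (FAP-like) were further divided into 4 endothelial and 3 FAP subtypes. Since these same lists gave the names, their fit is no separate support for them. Over a whole class and without a limit on detection, all 8 EC and all 7 FAP markers were raised. By the stricter naming rule the FAP-like cluster led by Sdk1 had 3 of 7. The SMC/pericyte-like cluster carried markers of smooth muscle (6 of 7) and of pericytes (7 of 8). Libraries shared 9 barcodes, and leaving these cells out changed no call. Levels are UMIs of a gene per 1000000 UMIs of the class (CPM), and intervals are exact 95% limits that cover counting error only. Cells are not replicates, and UMI levels are compared for 1 gene between classes, not between genes.

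For Id1, Id2, Id3 and Id4 the annotated genes (GRCm38) lie at chr2:152736251-152737410 (plus strand), chr12:25093799-25097140 (minus), chr4:136143497-136145755 (plus) and chr13:48261228-48266026 (plus). Smad6 lies at chr9:63953076-64022059 (minus). All 6 genes are protein-coding. The exons of Id4 overlap A330033J07Rik and Gm49291 on the opposite strand, and 3.12% of its 31-base words, like 1.60% of those of Id2 (shared with Gm6175), also occur in another transcript, so that their counts are less certain than those of the other members. Since the members are known as genes that Smads act on, the RefSeq promoter windows (GRCm38.p6, 250 bases before to 50 bases after the start) were searched on both strands for 3 Smad-binding elements, GTCTAGAC (the palindromic element), GGCGCC (a GC-rich element) and GTCTG (the Smad box; CAGAC on the other strand). The table held 4 of the 6 members. A stretch around 1 match in each is printed here, 5′ to 3′ on the gene's strand, with the matched letters in capitals, to show how the members differ in the element they carry near their start.
Id2, chr12:25096306-25096335, minus strand: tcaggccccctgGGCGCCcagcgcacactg
Id3, chr4:136143741-136143770, plus strand: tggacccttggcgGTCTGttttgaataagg
Id4, chr13:48260956-48260985, plus strand: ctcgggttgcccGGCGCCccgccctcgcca
Smad6, chr9:64022045-64022074, minus strand: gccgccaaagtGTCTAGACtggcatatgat

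Counted from the RefSeq start, which for Id2 and Id3 lies inside the annotated gene given above, the first matched base stood at -231 in Id2, -68 in Id3, -148 in Id4 and -4 in Smad6, where the 8-letter palindrome spanned the start. Id3 held a further match on the other strand (CAGAC, at -167). The palindrome was rare, in 70 of 32851 promoter windows (0.213%), whereas the GC-rich element was in 11.9% and the Smad box in 49.6% of them. These matches are descriptions of sequence and no measurement of binding.

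Id1 was mainly found in endothelium. EC-like cells were 39.3% of the cells and held 84.2% of all Id1 UMIs. Capillary EC-like cells had the highest level, with 1202 CPM (1175 to 1229; 7661 UMIs) in the DMSO and 867 CPM (839.9 to 894; 3916 UMIs) in the MVC library. The cluster with both arterial and capillary markers followed with 811 and 809 CPM, and arterial EC-like cells with 594 and 630.4 CPM. Each of these 3 subtypes lay apart from the next, meaning that the ranges of their library values did not overlap. Venous EC-like cells had 272 and 139 CPM, a range that took in the pericyte-like values of 197 and 174 CPM, and lymphatic EC-like cells had 149 and 155 CPM. Below these, 9 classes from MuSC-like (muscle stem cells, 83.7 and 26.6 CPM) to inflammatory FAP-like cells (28.0 and 19.3 CPM) overlapped with their neighbours in the order. Adventitial FAP-like cells were lowest, with 13.6 and 10.0 CPM.

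The share of cells with an Id1 UMI gave the same picture. With every cell thinned to 2000 UMIs, 62.6% (Clopper-Pearson, 60.1 to 65.1) of capillary EC-like cells had an Id1 UMI in the DMSO and 58.8% (55.7 to 61.8) in the MVC library, against 1.73% and 2.18% of adventitial FAP-like cells, which served as the background. Without thinning the capillary shares were 69.3% and 60.0% at median depths of 3451 and 3061.5 UMIs, and the background shares 8.53% and 6.80% at 13896 and 10916 UMIs.

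Id2, which lymphoid lineages such as natural killer cells need, was highest in immune cells. T/NK-like cells had 260.5 CPM (237 to 286) in the DMSO and 322 CPM (275 to 375) in the MVC library, and macrophage-like cells 274 and 242 CPM. These ranges overlapped with each other but with no other class. Macrophage-like cells were 3.31% of the cells and held 18.8% of the Id2 UMIs. The next value was that of arterial EC-like cells, with 104 and 89.5 CPM, and from there 10 classes down to MuSC-like cells (42.7 and 41.2 CPM) could not be separated from their neighbours. Venous EC-like cells (34.4 and 31.9 CPM) stood alone, above inflammatory FAP-like, pericyte-like and adventitial FAP-like cells, whose values of 17.5 to 25.3 CPM overlapped. Thinned shares were 31.2% and 22.8% in T/NK-like cells against a background of 3.46% and 4.36% in adventitial FAP-like cells. In T/NK-like cells the CPM was higher and the share lower in the MVC library, so no order of the libraries was read from it. Unthinned, the T/NK-like shares were 56.4% and 52.5% at median depths of 7941 and 6747 UMIs and the background shares 15.4% and 14.5%.

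Id3 was the broadest of the 4 Id genes. SMC/pericyte-like cells had 1639.8 CPM (1547 to 1736) in the DMSO and 1424 CPM (1319 to 1535) in the MVC library. Parenchymal FAP-like cells (Cxcl14+ and Smoc2+) ran from 1562 to 712 CPM between the libraries, a range that overlapped with that of SMC/pericyte-like cells above and with tenocyte-like cells (900.4 and 923 CPM), capillary EC-like cells (1018 and 722 CPM) and inflammatory FAP-like cells (883 and 752 CPM) below. Next by mean came the arterial/capillary cluster (739 and 673 CPM) and MuSC-like cells (738 and 635 CPM). They overlapped with each other and with the wide ranges of parenchymal FAP-like and capillary EC-like cells. A run of 6 classes from arterial EC-like (592 and 602 CPM) to venous EC-like cells (367 and 266 CPM) then overlapped with their neighbours. Among these, Schwann-like cells (782 and 278 CPM) also spanned the arterial/capillary and MuSC-like ranges, so the order of means gives no separate tiers. Of the 16 classes only those of immune cells were low, with 107 and 124 CPM in B cell-like, 77.6 and 78.0 CPM in macrophage-like and 93.2 and 56.6 CPM in T/NK-like cells. FAP-like cells held 41.7%, EC-like cells 25.2% and tenocyte-like cells 13.9% of the Id3 UMIs. After thinning, 79.6% and 64.8% of SMC/pericyte-like cells had an Id3 UMI, against 9.38% and 7.02% of T/NK-like cells. Unthinned shares were 92.2% and 79.2% against 19.5% and 14.8%, at median depths of 6548 and 5406 UMIs against 7941 and 6747 UMIs.

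Id4 UMIs were concentrated in a single cluster. The SMC/pericyte-like cells, only 1.65% of all cells, held 45.5% of the Id4 UMIs, with 365 CPM (322 to 412; 262 UMIs) in the DMSO and 464 CPM (405 to 529; 221 UMIs) in the MVC library. Id4 was also among the 10 leading genes of this cluster, with Olfr1033, Sdc1 and Col25a1, although it had been kept out of the clustering. The next classes were Schwann-like cells, with 20.5 and 19.0 CPM from 12 and 13 UMIs, and capillary EC-like cells, with 19.5 and 12.8 CPM from 124 and 58 UMIs. Of the 16 classes, all others had lower means and overlapped with their neighbours in the order. Parenchymal FAP-like cells, with 13.2 and 7.65 CPM, also overlapped with the capillary EC-like range. Thinned, 35.9% (26.7 to 46.0) and 52.1% (39.9 to 64.1) of SMC/pericyte-like cells had an Id4 UMI. The background class, T/NK-like cells, had none in either library, which, taking 3 cells of the total as the limit, allows a share of up to 1.56% of 192 DMSO and 5.26% of 57 MVC cells. Without thinning the shares were 62.1% and 67.5% in SMC/pericyte-like and 0.513% and 0 in T/NK-like cells.

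Smad6 was sparse and followed the arterial end of the endothelium. Its order was the arterial/capillary cluster with 59.5 CPM (43.1 to 80.2; 43 UMIs) and 70.3 CPM (52.0 to 92.9; 49 UMIs), arterial EC-like cells with 57.7 and 44.3 CPM, and capillary EC-like cells with 34.4 and 42.7 CPM. The library ranges of these 3 subtypes did not overlap, but their counting intervals did in part, so their order rests on few UMIs. Capillary EC-like cells lay apart from parenchymal FAP-like cells (17.8 and 16.1 CPM), from which 9 classes ran down to Schwann-like cells (6.82 and 7.31 CPM). Venous EC-like cells, with 5.98 and 10.6 CPM, were among these low classes. T/NK-like cells had no Smad6 UMI, which, taking 3 UMIs of the total as the limit, allows up to 1.74 CPM in the DMSO and 5.86 CPM in the MVC library. The thinned shares in the arterial/capillary cluster were 9.56% and 13.0%, and the unthinned ones 22.9% and 20.8%.

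Smad7 was present in every class within a narrower range. SMC/pericyte-like cells (291 CPM, 253 to 333, and 336 CPM, 286 to 392.3) and the arterial/capillary cluster (336 CPM, 295 to 381, and 255 CPM, 219 to 296) were highest and overlapped, and with thinned cells the arterial/capillary cluster ranked first. They were followed by 7 overlapping classes from arterial EC-like (186 and 230.1 CPM) and capillary EC-like (212 and 191 CPM) to inflammatory FAP-like cells (133 and 110.4 CPM), with T/NK-like cells among them (223 and 154 CPM). Macrophage-like cells had the lowest mean, with 50.6 and 45.2 CPM. EC-like and FAP-like cells each held 34.6% of the Smad7 UMIs. The thinned share was 34.95% and 35.2% in SMC/pericyte-like cells against 7.75% and 4.57% in macrophage-like cells, and unthinned 70.9% and 66.2% against 28.5% and 21.9% at 11189 and 9511.5 UMIs.

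**Figure D1:**
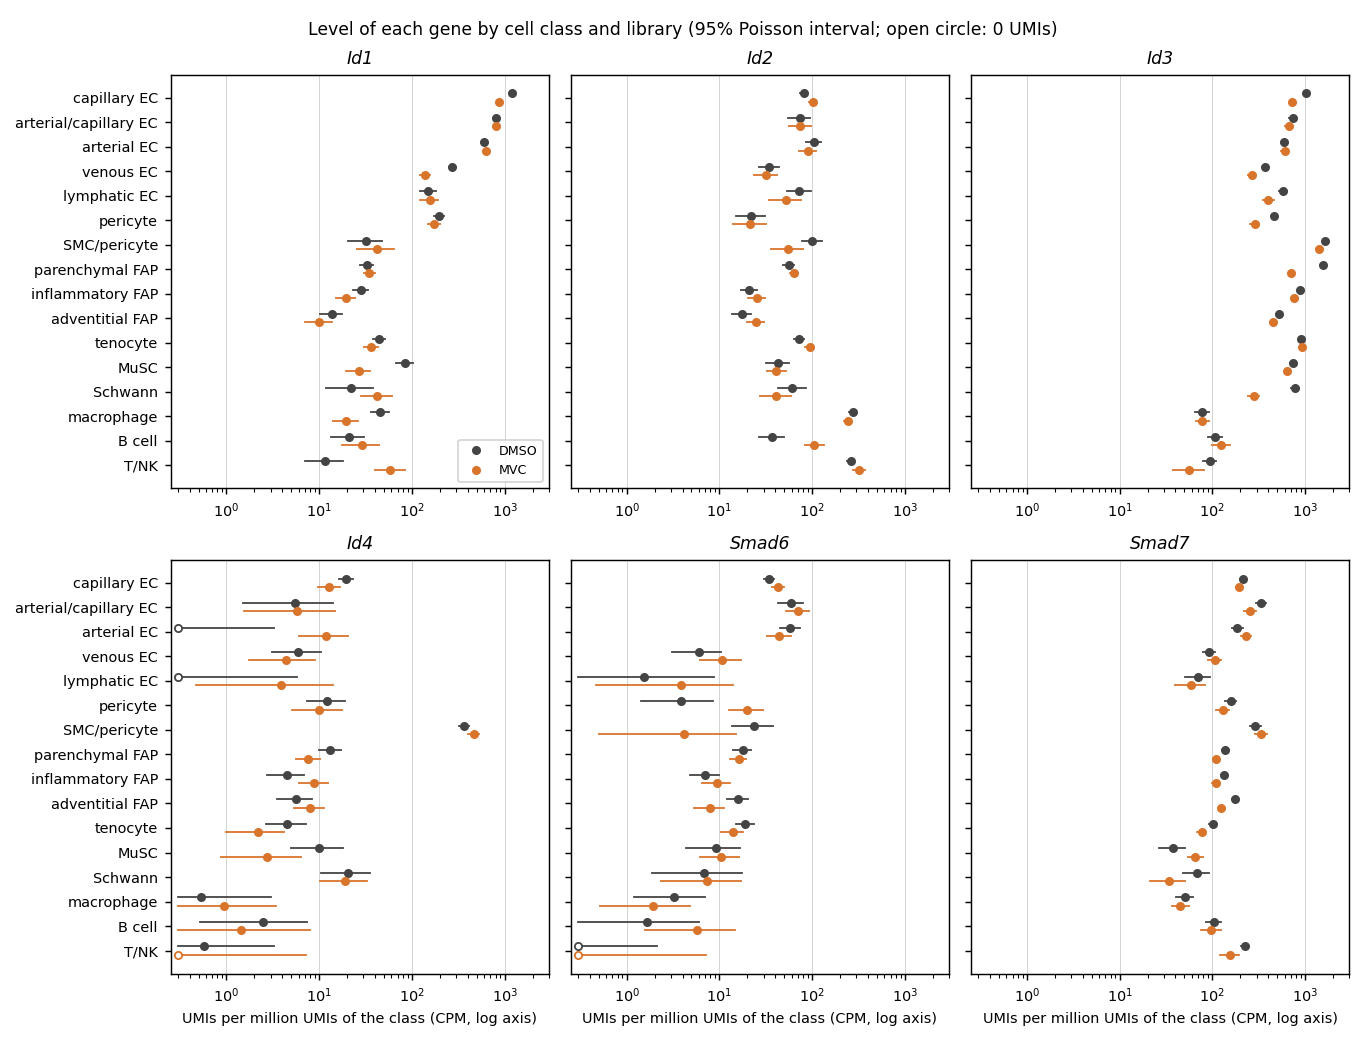
Level of each gene (CPM, log axis) in 16 classes, with DMSO in grey and MVC in orange, points for the summed UMIs of a class and library and bars for the exact Poisson 95% interval. Id1 peaked in capillary EC-like cells (1202 and 867 CPM), Id2 in T/NK-like and macrophage-like cells, Id4 in SMC/pericyte-like cells (365 and 464 CPM) and Smad6 in arterial endothelium; open circles at the left edge mark 0 UMIs.

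Across the 32 class and library values (16 classes, 2 libraries, points that share libraries and depth), the levels of the members were compared as log2(CPM + 10). Among the members, Id1 was most like Smad6 (r = 0.68), whereas Id1 and Id3 gave r = 0.22 and Id2 and Id3 r = -0.46. Among 10382 genes with at least 500 UMIs, the 3 most like Id1 were Bcl6b (r = 0.96), Slc9a3r2 (0.96) and Adgrl4 (0.95), all highest in capillary EC-like cells. Id2 was most like Map3k14 (0.80), Lcp2 (0.78) and H2afz (0.78), and Id3 most like Osmr (0.85), Nedd4 (0.83) and Arl13b (0.83). Id4 was most like Slc6a17 (0.92), Olfr1033 (0.87) and Cdh6 (0.87), which all peaked in the SMC/pericyte-like cluster. Smad6 was most like Eogt (0.87), Mtmr11 (0.85) and Msx1 (0.85), and Smad7 most like Elf1 (0.83), Ccnd2 (0.80) and Irf1 (0.75). With a rank correlation, Id2, Id3 and Id4 shared 0 and the other members 1 of these 3 genes, so the names depend on the measure.

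In capillary, arterial and venous EC-like cells, and likewise in pericyte-like and FAP-like cells, an Id3 UMI was more frequent in cells that had an Id1 UMI. The shares were taken over whole classes, and the capillary sub-clusters described below differ in the levels of both genes. The part of this mix in the shares was not tested. Of thinned capillary EC-like DMSO cells, 74.3% (71.3 to 77.2) of the 900 with an Id1 UMI also had an Id3 UMI, against 51.4% (47.1 to 55.7) of the 537 without. In the MVC library the shares were 64.5% (60.5 to 68.3) and 52.0% (47.1 to 56.9). The difference had the same direction in arterial EC-like cells (65.2% vs. 40.6% DMSO, 64.1% vs. 35.1% MVC) and in venous EC-like cells (57.9% vs. 34.1%, 51.4% vs. 28.9%). It was also the same in pericyte-like cells (45.1% vs. 35.2% DMSO, 40.6% vs. 27.6% MVC) and FAP-like cells (68.5% vs. 53.5%, 52.5% vs. 44.2%). The intervals overlapped in venous EC-like cells of the MVC library and, in both libraries, in pericyte-like and FAP-like cells. Smad6 showed no such difference in thinned capillary EC-like cells, with 7.22% of cells with and 7.08% of cells without Id1 in the DMSO and 8.04% and 8.35% in the MVC library. Smad7 was in 33.3% (30.3 to 36.5) of cells with and 22.2% (18.7 to 25.9) without Id1 in the DMSO library, and in 29.6% (26.0 to 33.5) and 26.7% (22.6 to 31.2) in the MVC library, where the intervals overlapped.

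**Figure D2:**
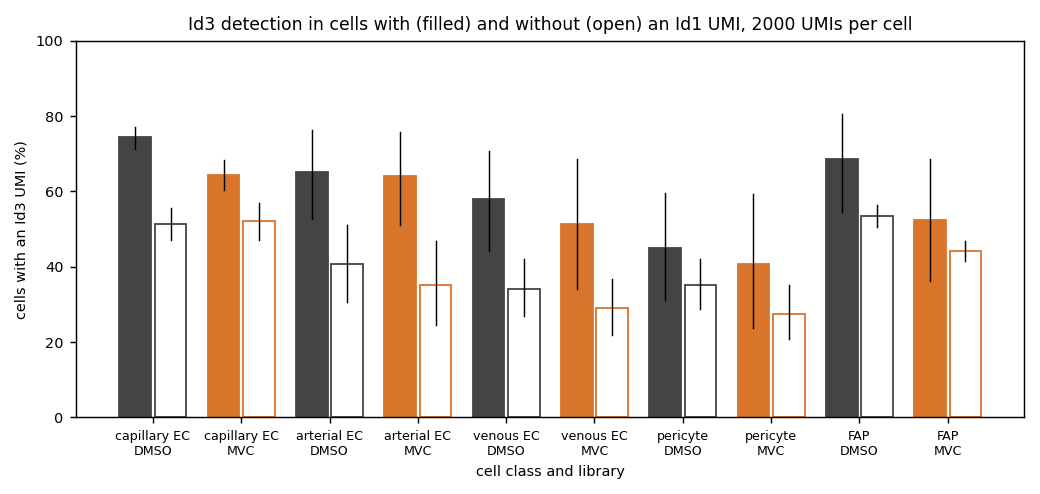
Share of cells with an Id3 UMI (percent, bars from 0) among cells with an Id1 UMI (filled) and without one (open), per class and library, cells thinned to 2000 UMIs, with Clopper-Pearson 95% intervals. In capillary EC-like cells of the DMSO library the shares were 74.3% and 51.4%.

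To ask whether the members differed with MVC, the ratio of CPM, MVC over DMSO, was taken within each class. A gene was counted in a class with at least 50 of its UMIs and was past the fold at a ratio of at least 1.5 in either direction. Over the 11 cell types, 47 pairs of a member and a type could be counted, of which 11 were past the fold, 3 higher and 8 lower in the MVC library. Over all genes in the same types 17.5% of pairs were past the fold in either direction. The 11 of 47 were not far from that share, so the count itself is no result about these genes. By direction, 9.0% (tenocyte-like) to 15.3% (T/NK-like) of all genes in a type were higher. From 3.54% (FAP-like) to 13.5% (T/NK-like) were lower. The shares of all genes given below join both directions unless stated. Id3 gave 4 of the 8 lower pairs and 0 of the higher ones. Over the 7 subtypes 6 of 38 pairs were past the fold, 1 higher and 5 lower, near the 12.0% to 19.0% of all genes in each subtype.

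In EC-like cells no member was past the fold, where 14.0% of all genes were. Id1 nonetheless had 921 CPM (902 to 939.5; 9489 UMIs) in the DMSO and 665 CPM (648 to 683; 5427 UMIs) in the MVC library, a ratio of 0.722 (0.699 to 0.747). Id3 had 820.4 and 600.0 CPM, a ratio of 0.731 (0.706 to 0.758). The other members differed less or were sparse, with ratios of 1.10 (0.987 to 1.22) for Id2, 0.735 (0.553 to 0.971) for Id4, 1.19 (1.02 to 1.39) for Smad6 and 0.955 (0.892 to 1.02) for Smad7. The intervals of Id1 and Id3 lay below those of Id2 and of both inhibitory Smads. The EC ratios of Id1 ran from 0.681 to 0.837 and those of Id3 from 0.698 to 0.754 over 14 alternatives. The 8 endothelial markers summed to 7280 CPM in the DMSO and 6975 CPM in the MVC library, and the 7 FAP markers to 184 and 408 CPM. The part of such differences in the ratios was not tested.

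Among the endothelial subtypes the Id1 ratio was lowest in venous and capillary cells. In capillary EC-like cells, where 16.6% of all genes were past the fold, the ratio was 0.721 (0.694 to 0.750) for Id1 and 0.709 (0.679 to 0.740) for Id3, against 1.247 (1.10 to 1.42) for Id2, 1.24 (1.02 to 1.52) for Smad6 and 0.904 (0.829 to 0.986) for Smad7. The sparse Id4 was the only member past the fold there, lower at 0.660, a call kept in 10 of 14 alternatives. In arterial EC-like cells (13.0% of all genes past the fold) no member was past the fold, with ratios of 1.06 (0.952 to 1.18) for Id1 and 1.02 (0.910 to 1.14) for Id3. The arterial/capillary cluster (15.9%) also had no member past the fold, with 0.997 (0.887 to 1.12) for Id1 and 0.910 (0.802 to 1.03) for Id3. These intervals lay above those of capillary EC-like cells. The difference of the ratios between subtypes was not tested.

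In venous EC-like cells (19.0% of all genes past the fold), Id1 was the only counted member past the fold, with a ratio of 0.510 (0.434 to 0.597) from 546 and 222 UMIs. The venous class consisted of 2 sub-clusters. The larger had 275 CPM in the DMSO and 131 CPM in the MVC library, while the smaller, with 33 and 25 Id1 UMIs, had 230.1 and 274 CPM. With both weighted equally the ratio was 0.80 and no longer past the fold.

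Capillary EC-like cells consisted of 5 sub-clusters that contributed unequally to the libraries. The sub-cluster led by Zfp366 and Depp1 (sub-cluster 0) had the highest Id1, with 1709 CPM in the DMSO and 1211 CPM in the MVC library, and Id3 of 1579 and 1111 CPM. Sub-cluster 1, led by Ablim3 and Rassf9, held 206 DMSO and 450 MVC cells, with Id1 of 837 and 503 CPM and Id3 of 1241 and 593 CPM. Both genes were lower in the MVC library within each of these sub-clusters. In sub-cluster 2 Id1 was 1243 and 986 CPM and Id3 780.2 and 507 CPM. Sub-clusters 3 and 4 differed little in Id1 (1238 and 1157 CPM; 431 and 416 CPM), while Id3 was 722 and 666 CPM in the former and 641 and 426 CPM in the latter. With the sub-clusters weighted equally the capillary ratio of Id1 was 0.783, and that of Id2 was 1.03 in place of 1.247.

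**Figure D3:**
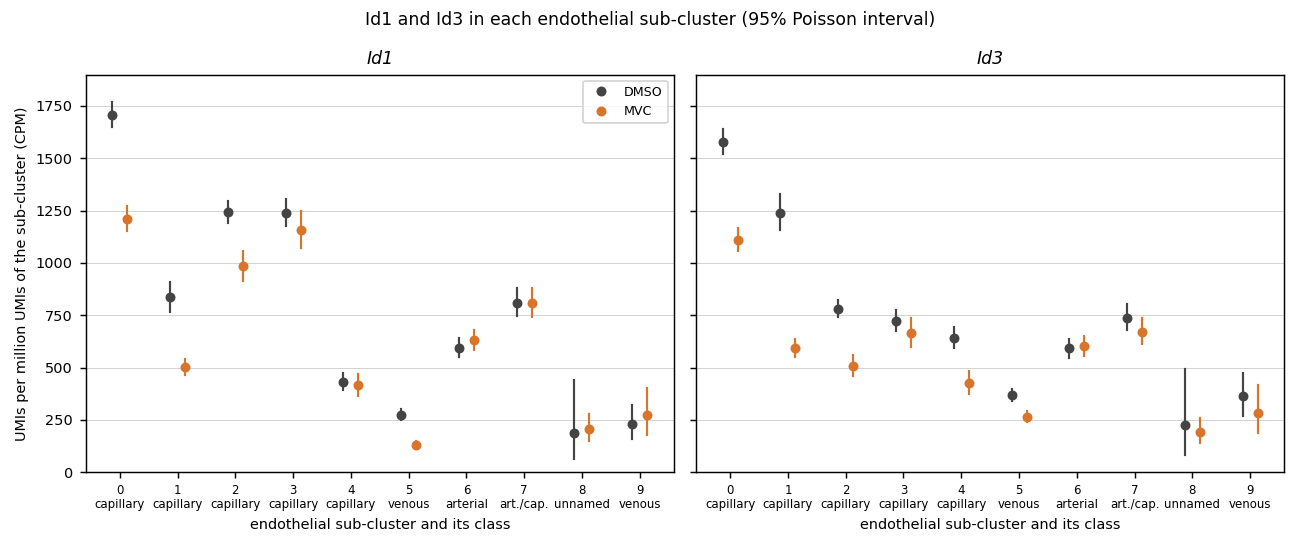
Id1 (left) and Id3 (right) in 10 endothelial sub-clusters (CPM, linear axis from 0), with DMSO in grey, MVC in orange and exact Poisson 95% intervals. MVC values lay below DMSO values in capillary sub-clusters 0, 1 and 2 and venous sub-cluster 5, whereas arterial (6) and arterial/capillary (7) values of Id1 and Id3 overlapped.

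Lymphatic EC-like cells had no member past the fold (21.1% of all genes), with an Id1 ratio of 1.04 (0.762 to 1.41) and an Id3 ratio of 0.697 (0.585 to 0.828). In pericyte-like cells, which support the capillary wall, Id3 was past the fold (15.6% of all genes), at 465 CPM (432 to 501) in the DMSO and 287 CPM (257 to 319) in the MVC library, a ratio of 0.616 (0.540 to 0.701). Id1 was at 0.883 (0.737 to 1.06) in the same cells. Doublets were called in 14.6% of DMSO and 10.8% of MVC pericyte-like cells, and without them the Id3 ratio was 0.676, just within the fold. A list of 24 immediate early and heat shock genes, which tissue dissociation induces, summed to 43137 and 32227 CPM there, with 6 lower and 0 higher past the fold. The 7 FAP markers, all detected, summed to 2403 and 1539 CPM. The part of these lists in the Id3 ratio was not tested. In SMC/pericyte-like cells (19.3% of all genes past the fold) Id4 was at a ratio of 1.27 (1.06 to 1.53), Id3 at 0.868 (0.789 to 0.955) and Smad7 at 1.15 (0.934 to 1.43). There Id2 alone was past the fold, at 0.545 (0.334 to 0.864) from 72 and 26 UMIs, of which 3 cells gave 50% and 46.2%, and it was at 0.683 when the members were kept in the clustering. The 7 FAP markers summed to 974 and 2783 CPM there, and 4 of 23 dissociation-induced genes were lower and 0 higher past the fold, whose part was not tested.

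In FAP-like cells (14.8% of all genes past the fold, 3.54% lower) Id3 was the only member past it. Its level was 997 CPM (980.4 to 1014; 13182 UMIs) in the DMSO and 651 CPM (638 to 665; 8923 UMIs) in the MVC library, a ratio of 0.653 (0.636 to 0.671), and it was lower past the fold in all 14 alternatives. The difference lay mostly in parenchymal FAP-like cells (15.8% of all genes past the fold, 4.19% lower), with 1562 CPM (1526 to 1599.8) and 712 CPM (692 to 734). The ratio there was 0.456 (0.439 to 0.474) and ran from 0.413 to 0.480 over 13 alternatives. The ratio was 0.852 (0.811 to 0.894) in inflammatory FAP-like cells (12.0% of all genes past the fold) and 0.863 (0.810 to 0.920) in adventitial FAP-like cells (13.5%). After thinning, 56.3% (51.6 to 60.9) of parenchymal FAP-like DMSO and 41.9% (38.1 to 45.9) of MVC cells had an Id3 UMI, and unthinned 78.4% and 64.5%. The dissociation-induced genes summed to 66244 and 58272 CPM in parenchymal FAP-like cells, with 5 of 24 lower and 0 higher past the fold. The 7 FAP markers summed to 31573 and 26815 CPM in FAP-like and to 37205 and 31310 CPM in parenchymal FAP-like cells. The part of both lists in the Id3 ratios was not tested. The median ratio of all genes was 0.13 above 0 on the log2 scale in FAP-like and 0.14 in parenchymal FAP-like cells, so that relative to it Id3 was lower still.

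Sparse members also passed the fold in FAP subtypes and in capillary EC-like cells. Id4 was at 0.579 (0.387 to 0.864) in parenchymal and 1.98 (1.10 to 3.60) in inflammatory FAP-like cells, from 58 and 48 and from 21 and 32 UMIs, and at 0.660 (0.474 to 0.908) in capillary EC-like cells from 124 and 58 UMIs. These Id4 calls were kept in 10 of 13, 11 of 13 and 10 of 14 alternatives. Smad6 was at 0.501 (0.314 to 0.783) in adventitial FAP-like cells, from 65 and 30 UMIs, and at 0.859 with finer clusters. Smad7 was at 0.768 (0.718 to 0.821) in FAP-like cells as a whole and had intervals wholly below 1 in all 3 FAP subtypes. Tenocyte-like cells had no member past the fold (14.4% of all genes), with Id3 at 1.03 (0.979 to 1.07), Id2 at 1.30 (1.11 to 1.52) and Smad7 at 0.749 (0.645 to 0.870).

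In MuSC-like cells, where Id proteins hold back the myogenic bHLH factors, Id1 and Smad7 were past the fold in opposite directions (19.2% of all genes past it). Id1 was at 83.7 CPM (67.5 to 103) in the DMSO and 26.6 CPM (19.7 to 35.1) in the MVC library, a ratio of 0.318 (0.220 to 0.454). In the DMSO library 3 cells gave 43.5% of the 92 Id1 UMIs, and with the top 3 cells of each library left out the ratio was 0.477. Smad7 was at 37.3 CPM (26.8 to 50.6) and 65.6 CPM (54.5 to 78.4), a ratio of 1.76 (1.23 to 2.57), and ran from 1.59 to 1.86 over 13 alternatives. Id3, the Id gene with the most UMIs there, was at 738 and 635 CPM, a ratio of 0.861 (0.787 to 0.943), and Id2 at 0.965 (0.662 to 1.42). The dissociation-induced genes summed to 24187 and 36892 CPM in these cells, with 11 of 24 higher and 1 lower past the fold. The 7 FAP markers summed to 460 CPM (5 detected) in the DMSO and 1427 CPM (7 detected) in the MVC library, and the 8 endothelial markers to 168 and 242 CPM. The part of these in the Id1 and Smad7 ratios was not tested.

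In Schwann-like cells Id3 and Smad7 were past the fold (19.6% of all genes). Id3 was at 782 CPM (712 to 857; 459 UMIs) and 278 CPM (239.7 to 320.3; 190 UMIs), a ratio of 0.355 (0.298 to 0.421). It stayed lower past the fold in 14 of 14 alternatives, although 3 cells gave 43.6% of the DMSO UMIs. The cluster led by Cadm2 and Chl1 had 1471 CPM in the DMSO and 269 CPM in the MVC library, from 331 and 57 UMIs in 45 and 51 cells, whereas the cluster led by Grik2 had 442 and 356 CPM. Smad7 was at 68.2 and 33.6 CPM, a ratio of 0.493 (0.282 to 0.844) from 40 and 23 UMIs, and at 0.730 as a mean of per-cell values. FAP markers, 7 of 7 detected in both libraries, summed to 3475 and 1797 CPM in these cells. The dissociation-induced genes summed to 29298 and 24303 CPM, with 8 of 24 lower and 1 higher past the fold (median log2 ratio -0.44). The part of both lists in these ratios was not tested.

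In the immune classes the ratios past the fold rested on few UMIs. In T/NK-like cells (28.8% of all genes past the fold) Id1 was at 11.6 CPM (7.07 to 17.9; 20 UMIs) and 58.6 CPM (39.5 to 83.6; 30 UMIs), a ratio of 5.06 (2.78 to 9.40), with 70.0% and 80.0% of the UMIs in 3 cells. It was at 3.57 with the top 3 cells of each library left out and at 13.5 after thinning. Id3 was at 0.608 (0.394 to 0.906), at 0.203 without doublets and at 0.817 after thinning. All 8 endothelial markers were detected in both libraries and summed to 298 and 910 CPM in T/NK-like cells, and the 7 FAP markers to 465 and 2339 CPM. In macrophage-like cells (16.3%) Id1 was at 45.2 and 19.5 CPM, a ratio of 0.431 (0.289 to 0.633), with about the same concentration in 3 cells (59.5% and 58.5%), and at 1.249 as a mean of per-cell values. The endothelial markers moved in the same direction there, from 385 to 188 CPM. In B cell-like cells (21.0%) Id2 was at 36.7 CPM (26.6 to 49.2) and 106 CPM (82.8 to 133), a ratio of 2.88 (1.96 to 4.29), and remained higher past the fold in 13 of 13 alternatives. FAP markers summed to 341 and 2940 CPM in B cell-like cells, and doublets were 3.38% and 10.4% of them. The part of these markers in the immune ratios was not tested. Id2 itself, at its highest in T/NK-like and macrophage-like cells, was within the fold in both, at 1.24 (1.03 to 1.48) and 0.883 (0.780 to 1.001).

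**Figure D4:**
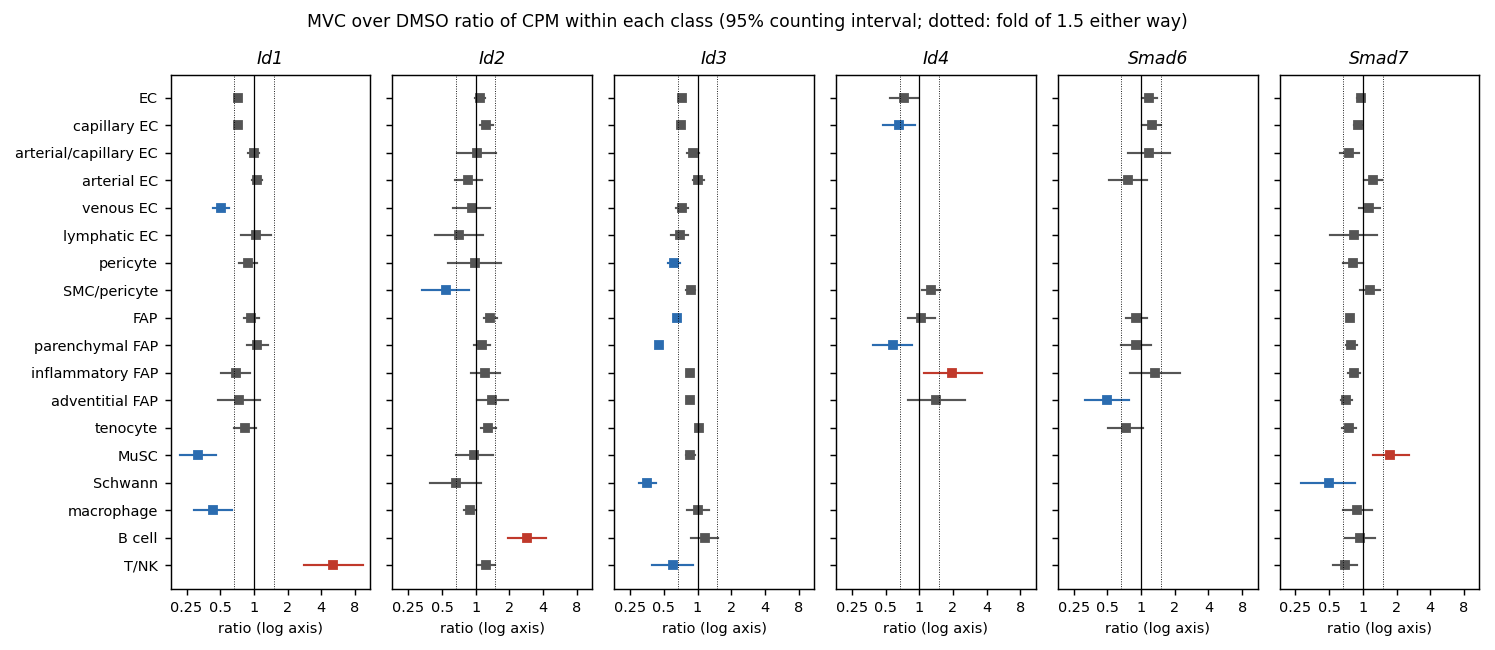
Ratio of CPM, MVC over DMSO (log axis), of each gene in the classes with at least 50 of its UMIs, with exact 95% counting intervals, a solid line at 1 and dotted lines at 1.5-fold either way. Blue and red mark ratios past the fold, lower and higher in the MVC library; Id3 in parenchymal FAP-like cells (0.456) and Schwann-like cells (0.355) and Id1 in MuSC-like (0.318) and T/NK-like cells (5.06) are among those marked.

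To place Id1 and Id3 beside the rest of the pathway, 10 gene lists (101 genes) were read in capillary EC-like cells, where the median log2 ratio of all genes was 0.06 (pseudocount of 10 CPM). The share of all genes past the fold there, 16.6%, is the reference for the counts of each list. Of the BMP ligands 3 of 10 could be counted. Bmp6 was higher past the fold, at 534 and 804 CPM (1.51, 1.44 to 1.58), Bmp4 was lower, at 69.7 and 41.4 CPM (0.594, 0.498 to 0.706), and Bmp2 was at 0.735. The ligands thus differed in opposite directions, with a median of -0.25. Among the antagonists only Twsg1 could be counted (0.971; list median -0.03).

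No receptor and no signal-transducing Smad was past the fold in capillary EC-like cells. The 11 receptors counted had a median of 0.16, with the BMP type II receptor Bmpr2 at 728 and 655 CPM (0.900), the co-receptor endoglin (Eng) at 452 and 560 CPM (1.24) and the TGF-beta receptor Tgfbr1 at 191 and 147 CPM (0.770). The 5 transducers counted had a median of 0.09, with Smad1 at 1.06, Smad4 at 1.02 and Smad5 at 1.12. The 9 other brakes on the pathway also had none past the fold (median 0.04), with Nedd4l at 1.03, Smurf2 at 1.04 and Ski at 0.953.

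None of the other genes known to respond to BMP was past the fold, as was the case for Id1 and Id3. Of 4 counted (median -0.002), the decoy receptor Bambi was at 79.1 and 66.6 CPM (0.842), Hey1 at 0.933 and Msx1 at 1.07. The 5 TGF-beta response genes had a median of 0.14 and none past the fold, with Ldlrad4 at 330 and 440 CPM (1.33), Skil at 1.13 and Pmepa1 at 1.12. The E proteins, to which Id proteins bind, were at 1.05 (Tcf4, 2210 and 2315 CPM), 1.07 (Tcf12) and 1.16 (Tcf3; median of the list 0.09). Of the bHLH factors, 5 were counted (median -0.08), with Lyl1 higher past the fold (2.35, from 27 and 45 UMIs), the Notch target Hes1 at 664 and 486 CPM (0.732), Bhlhe40 at 0.846 and Tal1 at 1.21. The 24 dissociation-induced genes had a median of -0.01 and 2 of 24 past the fold, Nr4a1 (1.501) and Egr2 (1.52), both higher. Their most abundant members, Hspa1a, Hspb1 and Hspa1b, were at 1.10, 1.001 and 0.999.

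In the whole EC-like class 10 genes of these lists were past the fold, where 14.0% of all genes were. The count itself is no result about these lists. Bmper (14 and 55 UMIs, 4.96), Rgma (1.70), Tmem100 (2.53), Hey2 (1.99), Bhlhe41 (3.79), Lyl1 (2.002), Ldlrad4 (1.51) and Egr2 (1.51) were higher, and Bmpr1b (0.442) and Bmp4 (0.642) were lower in the MVC library. Fst, with 32 and 30 UMIs, was at 1.18, but venous EC-like cells held 29 and 2 of these UMIs. Of the 40 and 14 Bmpr1b UMIs, venous EC-like cells held 21 and 1. Bmper and Bmpr1b were leading genes of FAP-like and tenocyte-like clusters, and their part from such cells among EC-like cells was not tested.

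**Figure D5:**
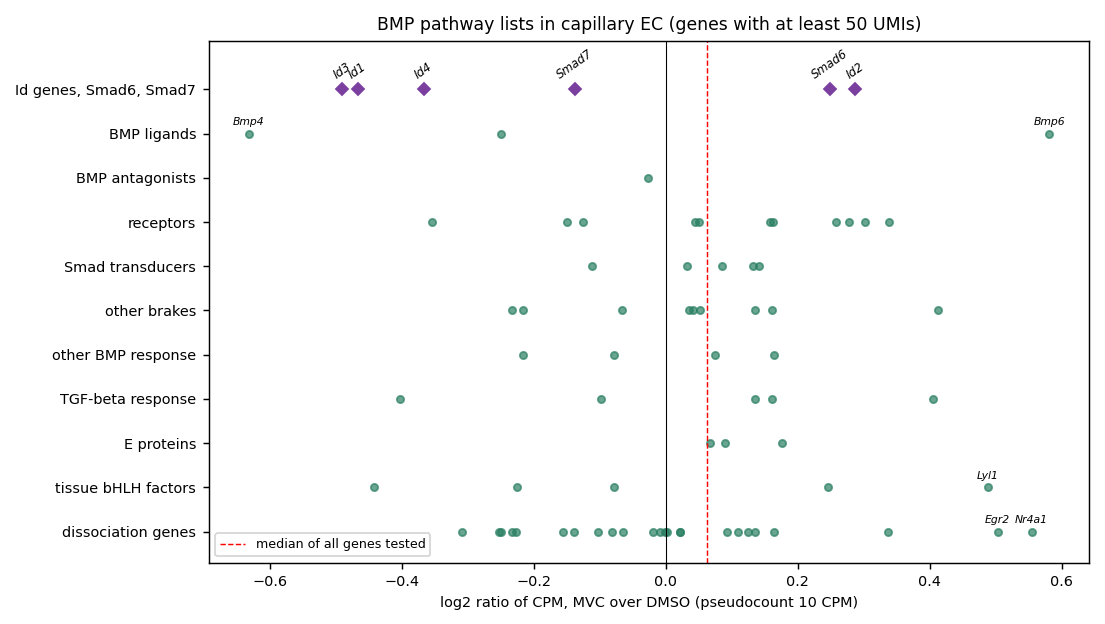
Ratio of CPM, MVC over DMSO, in capillary EC-like cells as log2 with a pseudocount of 10 CPM, for each counted gene (at least 50 UMIs) of the 6 members (diamonds) and 10 lists (circles), with a dashed line at the median of all genes tested (0.06). Id1 and Id3 lay to the left of all receptors, transducers and other brakes, and labels name list genes past the fold.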

How the data were processed

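The deposited values were raw UMI counts per gene and barcode, made by the authors with Cell Ranger 7.0.0 for 2 libraries, 1 from DMSO-treated and 1 from MVC-treated mice, without normalisation or pooling. Hindlimb muscle had been digested with collagenase and dispase and live mononuclear cells sorted with a viability dye after red-cell lysis. Per the labels, Seurat 5.0.1 and the mouse build mm10 were also used, and how intronic reads were counted is not given in the sources used here. The libraries held 5812 and 6047 barcodes with 39150511 and 36063575 UMIs, of which cells with fewer than 500 genes or with mitochondrial UMIs above 10% (6.45% and 9.81%) were removed.

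The 6 genes, the gene lists and the tests were chosen with earlier results of these data known. Cells were scaled to 10000 UMIs and clustered on 2000 variable genes without the 6 members, 30 principal components and 20 neighbours by the Leiden algorithm at resolution 1, with no integration of the libraries. A name needed 3 or more of its markers, each raised by 1 or more on the log2 scale and detected in 20% or more of the cells of the cluster, and a lead of 0.5 over the next name, failing which both names were given. Shallow clusters, with a median UMI count less than that of their libraries divided by 3, stayed unnamed where none of the markers was among their leading genes. These names were rebuilt, so that differences from the study's own classes may come from them. Doublets were scored against simulated ones (50 neighbours, rate of 0.8% per 1000 cells), 236 and 238 cells were called, and they were kept in the main values. No correction for free RNA was made.

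UMIs were summed per class and library and divided by the class total. Intervals were exact Poisson, Clopper-Pearson or exact conditional 95% limits and cover counting error only. Cells under 2000 UMIs, 447 and 981, were left out of thinned shares. The 10 lists were BMP ligands, antagonists, receptors, Smad transducers, other brakes, other BMP response genes, TGF-beta response genes, E proteins, bHLH factors and dissociation-induced genes. Named were the 6 members, the 3 genes most like each, and of each list the genes past the fold in capillary or all EC-like cells (at most 5) and the 3 with the most UMIs in EC-like cells. Genes named as leaders of a cluster serve only to label it. Gene positions and shared 31-base words came from the reference transcripts and annotation of GRCm38 and promoter windows from RefSeq. Python 3.11.15, numpy 2.4.6, pandas 2.3.3, scipy 1.17.1, scikit-learn 1.9.0, igraph 0.11.9, leidenalg 0.10.2 and matplotlib 3.10.9 were used, and the scripts were tested on simulated data. Alternatives changed the scaling, depth, cell weights, doublets, filters, resolution, clustering genes, centring, mix of clusters, fold and UMI minimum.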

Additional observations from a re-analysis of the deposited data

Results flagged for a closer look

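Members past the 1.5-fold limit in opposite directions in different classes were set side by side. In each case the difference between the classes was not tested, since each group held 1 library. Id1 was lower in the MVC library in MuSC-like (0.318) and macrophage-like cells (0.431) and higher in T/NK-like cells (5.06). Id2 was higher in B cell-like (2.88) and lower in SMC/pericyte-like cells (0.545). Smad7 was higher in MuSC-like (1.76) and lower in Schwann-like cells (0.493). Among subtypes, Id4 was lower in capillary EC-like (0.660) and parenchymal FAP-like cells (0.579) and higher in inflammatory FAP-like cells (1.98), where it rested on 53 UMIs.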

How the results depend on the processing

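Of 1135 ratios recomputed under an alternative, 1051 moved by less than their counting interval, 82 moved by more and 2 reversed. A reversal was counted only for ratios past the fold in the main values. Ratios within the fold could cross 1 without being counted as reversed, as Id3 did in B cell-like and MuSC-like cells. The reversed ratios were Id4 in parenchymal FAP-like cells, at 1.04 with cells thinned to 2000 UMIs, and Id1 in macrophage-like cells, at 1.249 as a mean of per-cell CPM. In EC-like cells, scaling by the median ratio of all genes gave 0.689 for Id1 and 0.698 for Id3. Thinning gave 0.768 for Id1, 1.28 for Id2, 0.545 for Id4 and 0.871 for Smad7, and the mean of per-cell CPM gave 0.681 for Id1. With the endothelial sub-clusters weighted equally, an alternative chosen after seeing the data, Id1 was at 0.837. A further one, also chosen after seeing the data, left out a low-UMI endothelial sub-cluster of mostly MVC cells and gave 0.738. The pairs past the fold numbered 24 when a level 25% higher in either library sufficed, as it did for 41.0% of all pairs, 6 at a fold of 2, where 5.33% were, and 5 with thinned cells, where fewer pairs (31) had enough UMIs. The minimum of UMIs, set to 20 or 100, gave 14 or 8. The cause of the other differences was not tested. Of 48 levels 42 and of 30 list medians 29 held, but only 4 of 12 lists of most similar genes did. Shares of cells moved with depth by construction. No paired analysis was possible because each group held 1 library, and leaving out a replicate was likewise impossible. With 1 library a group, depth limits only the counting error. Id4 had at most 124 UMIs per library in each of the 15 classes below SMC/pericyte-like cells, so that its order there and its ratios are the least certain.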

Other observations

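Of the classes with fewer than 50 cells in a library, which were not counted above, perineurial-like and SMC-like cells had high values of Id3. Perineurial-like cells, which sheathe nerve bundles (37 DMSO and 52 MVC cells), had 1992 and 888 CPM, and SMC-like cells (64 and 48 cells) 1808 and 904 CPM, ratios of 0.446 (0.390 to 0.509) and 0.4997 (0.447 to 0.557). The same perineurial-like cells had Id1 at 406 and 205 CPM, above all non-endothelial classes of at least 50 cells, although 3 cells gave 65.9% and 51.9% of these UMIs. Endothelial markers summed to 640 and 1711 CPM in SMC-like and 357 and 509 CPM in perineurial-like cells. Neutrophil-like cells (65 and 34 cells) had only 8 and 1 Id3 UMIs, and 0 of Id4.

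A cluster of 136 low-UMI cells (median 1232.5 UMIs) with endothelial genes such as Gpihbp1 and Fabp4 had Id1 at 709 and 661 CPM and Id3 at 743 and 612 CPM. An unnamed cluster led by Pappa2 and Sfrp2 (22 and 25 cells) had Id3 at 1235 and 1195 CPM with Id1 at 21.1 and 69.3 CPM. The barcodes removed by the filters (375 DMSO and 593 MVC) had Id1 at 283 and 156 CPM and Id3 at 445 and 266 CPM, at median depths of 709 and 662 UMIs.

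In tenocyte-like cells the members differed between the clusters. The Angptl7+ cluster had Id3 at 973 CPM in the DMSO and 1274 CPM in the MVC library, whereas the Col22a1+ cluster had 846 and 647 CPM. Adventitial FAP-like cells likewise split, with Id3 at 587 and 585 CPM in the cluster led by Sdk1 and Dmkn and 320.0 and 185 CPM in the Pi16+ cluster. These differences between clusters were not tested.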
